A study of Drosophila melanogaster with 12 samples.

Results

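The regions described here were 35 piRNA clusters on the assembled chromosome arms of Drosophila melanogaster. They came from 142 clusters in the deposited count table, of which 93 held enough reads to be tested. A mean of at least 10 counts over the 8 libraries was required. Clusters on heterochromatic (Het) scaffolds, on chromosome 4, in X-TAS or on unplaced sequence were left out, as were the 7 individually known clusters numbered 1, 2, 5, 6, 8, 11 and 33. Of the 36 arm clusters that remained, 8 tested clusters lay on 2L, 10 on 2R, 10 on 3L, 1 on 3R and 6 on X, and 1 cluster missed the minimum. The cluster that missed it was cluster 114 on X, 0.204 kb long, with a mean of 5.25 counts. The clusters just above the minimum were cluster 110 on X, with a mean of 11.75 counts, and cluster 112 on 2R, with a mean of 27.25 counts. Cluster 110 passed only through its GFP_KD H3K23ac libraries, since its mean over the other 6 libraries was 9.17 counts, so its high ratio in GFP_KD helped to select it. Cluster numbers are those of the table, and coordinates are in the dm3 build.

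Histone H3 and H3 acetylated at lysine 23 (H3K23ac) were measured by ChIP-seq in whole ovaries, after knockdown of enok and after a control knockdown of GFP. Each knockdown and antibody combination had 2 libraries, giving 4 groups and 8 libraries, and 4 input libraries were not analysed here. Females of every group carried the somatic driver tj-GAL4/+ together with the germline driver P{w[+mC]=GAL4::VP16-nos.UTR}, inserted in CG6325 as allele MVD1. In enok_KD that chromosome stood over P{TRiP.HMS02634}attP2, an RNAi transgene against enok, and in GFP_KD it stood over P{VALIUM20-EGFP.shRNA.1}attP2, an RNAi transgene against EGFP. RNAi was induced at 29 °C for 2 to 3 days in females 2 to 3 days old, fed wet yeast for 1 to 2 days. Each gene was knocked down by 1 RNAi line, and somatic and germline chromatin were sequenced together. In such bulk chromatin, a change in which cells contributed and a change within cells cannot be told apart. The tables used here count reads over piRNA clusters and transposon families, so neither the level of enok nor the markers of ovarian cells could be checked in them.

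piRNA clusters are the genomic loci whose long transcripts are cut into piRNAs, the small RNAs that guide Piwi proteins to silence transposons. Many of the Drosophila clusters are packed with transposon remnants and sit near the border between euchromatin and pericentromeric heterochromatin, and some are transcribed from both strands out of H3K9me3-marked chromatin by the Rhino-dependent machinery. Enok is a MYST-family lysine acetyltransferase that acetylates H3K23, a mark of active chromatin, and it is needed for Drosophila oogenesis.

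The libraries held between 22774 and 34324 cluster reads for H3K23ac and between 49811 and 72946 for H3. Arm clusters made up 26.8% and 24.4% of reads over clusters in the enok_KD H3K23ac libraries, against 32.1% and 31.5% in the GFP_KD H3K23ac libraries. They made up 39.9% and 42.1% in the enok_KD H3 libraries, against 34.7% and 34.1% in the GFP_KD H3 libraries. Clusters 9 and 22 on X together held 36.6% and 33.2% of the arm-cluster reads in enok_KD H3K23ac and 40.4% and 39.4% in GFP_KD H3K23ac. They held 57.4% and 62.1% in enok_KD H3 and 50.9% and 49.6% in GFP_KD H3. The other 33 arm clusters shared between 3876 and 12528 reads a library. Replicates were further apart in enok_KD, with a chi-square per degree of freedom of 4.55 for H3K23ac and 5.42 for H3, than in GFP_KD, with 1.19 for H3K23ac and 1.68 for H3, where 1 is sampling noise alone. With limma-voom and a weight for each group, which lets the groups differ in spread, the counts of called arm clusters were 5 for the change of H3K23ac per H3, 6 for H3, 7 for H3K23ac and 30 for the ratio in GFP_KD, against 4, 6, 6 and 29 in the edgeR results given below.

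H3K23ac per H3 is given as the log2 ratio of normalised H3K23ac counts to normalised H3 counts, after TMM scaling over all 93 clusters, so that 0 is the ratio of a typical cluster and no absolute acetylation level is implied. This ratio divided the arm clusters widely. In GFP_KD, 16 of the 35 arm clusters had a ratio above that of a typical cluster and 13 had a ratio below it at an adjusted p under 0.05 (edgeR quasi-likelihood test, Benjamini-Hochberg over all 93 clusters). Of all clusters tested, 76.3% were called, 38.7% higher and 37.6% lower, and the median ratio was -0.16 both over the arm clusters and over all clusters, so the arm clusters were called about as often as clusters in general. In enok_KD, 15 were called higher and 13 lower, where 64.5% of all clusters were called, 32.3% in each direction. The order of the arm clusters was shared between knockdowns, with a Spearman's rho of 0.92 over the 35 clusters between 4 enok_KD libraries and 4 GFP_KD libraries. Of the 35, 15 were called higher in both knockdowns, 12 were called lower in both, and none was called in opposite directions. The same joint count was not made over all 93 clusters, so this agreement is not given as particular to arm clusters. The split of higher against lower calls depends on where 0 is set: in GFP_KD it was 13 to 19 with total-count scaling, a shift of -0.53 in the median over all 93 clusters, and 13 to 20 with factors from the transposon table, a shift of -0.79.

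**Figure D1:**
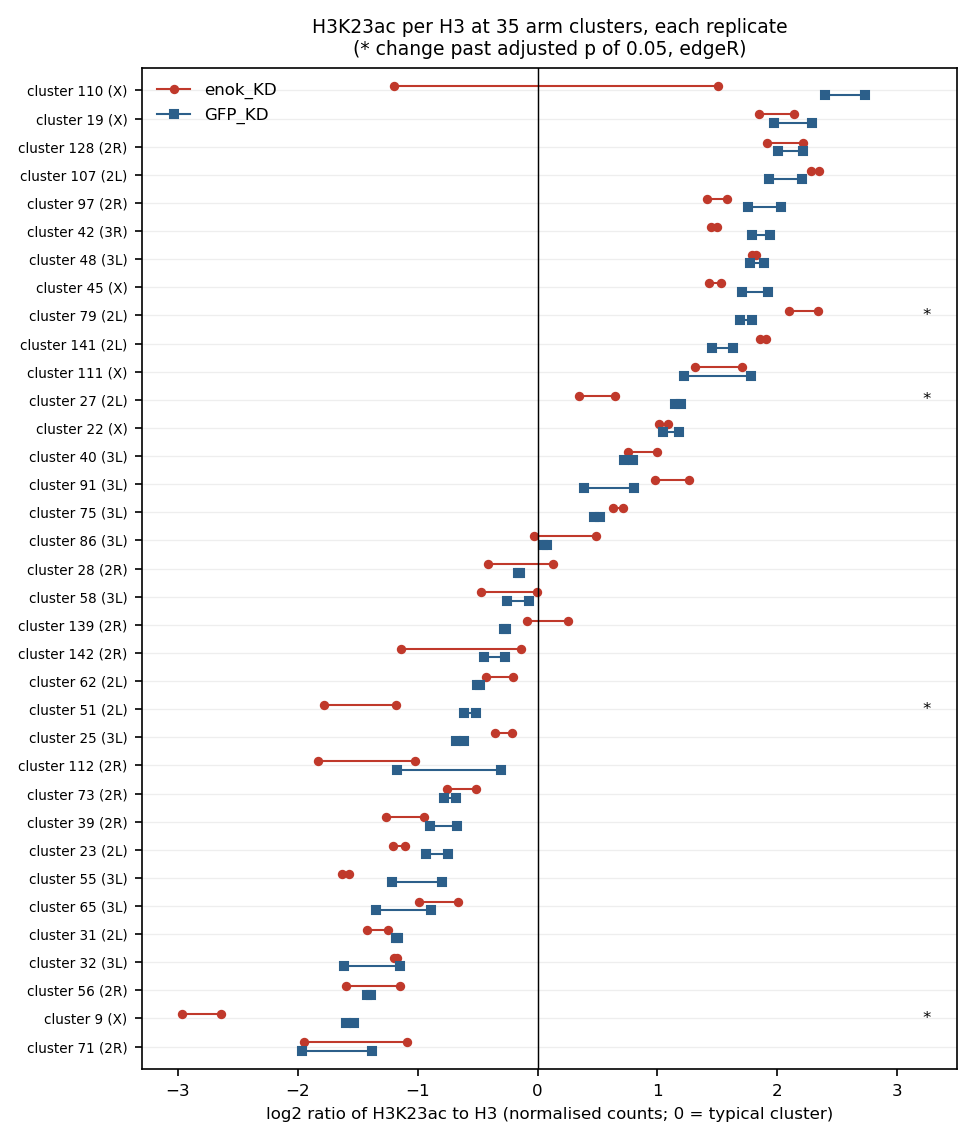
Log2 ratio of H3K23ac to H3 (x axis) at each of the 35 arm clusters (y axis, with the arm in brackets, ordered by the ratio in GFP_KD); red circles are the 2 enok_KD replicates, blue squares the 2 GFP_KD replicates, a line joins the replicates of a knockdown, and asterisks mark the 4 clusters with a called change. The clusters spread from about -3 to about 3, far wider than most replicate pairs, and cluster 110 has the widest pair.

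The 5 arm clusters with the highest ratio in GFP_KD, among those with a mean of at least 100 counts, were clusters 19 (X), 128 (2R), 107 (2L), 97 (2R) and 42 (3R), with log2 ratios of 2.12, 2.11, 2.09, 1.89 and 1.86. Cluster 107, 5.493 kb at 2L:21894816-21900308, had 344 and 405 H3K23ac counts against 257 and 206 H3 counts in enok_KD, and 514 and 308 H3K23ac counts against 301 and 311 H3 counts in GFP_KD. Cluster 128, 5.784 kb at 2R:3321225-3327008, had 211 and 225 H3K23ac counts against 165 and 155 H3 counts in enok_KD, and 251 and 211 against 169 and 175 in GFP_KD. In both of these short intervals H3K23ac reads outnumbered or nearly matched H3 reads in every library pair, although each H3 library was deeper than the H3K23ac libraries. The ratios of the 5 clusters correspond to 3.63-fold to 4.34-fold that of a typical cluster, and their adjusted p values in edgeR ran from 4.85e-44 to 5.83e-29.

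The 5 lowest with a mean of at least 100 counts were clusters 9 (X), 56 (2R), 32 (3L), 31 (2L) and 65 (3L), with log2 ratios of -1.56, -1.43, -1.35, -1.17 and -1.11. Cluster 71 on 2R had the lowest ratio of all 35, at -1.74 (edgeR adjusted p = 5.09e-07). It missed that limit with a mean of 45.9 counts, and had 9 and 10 H3K23ac counts against 100 and 105 H3 counts in GFP_KD. A limit that counts H3K23ac reads leaves out low ratios more readily. Cluster 9, 84.671 kb at X:21759393-21844063, had 375 and 504 H3K23ac counts against 8552 and 10242 H3 counts in enok_KD, and 846 and 655 against 6925 and 7292 in GFP_KD. Cluster 56, 27.294 kb at 2R:1254615-1281908, had 16 and 15 H3K23ac counts against 133 and 121 H3 counts in enok_KD, and 30 and 25 against 215 and 263 in GFP_KD. In raw counts H3 thus exceeded H3K23ac several-fold in every pair of clusters 9 and 56, although each H3 library was also deeper. After scaling, the log2 ratios of cluster 9 were -2.64 and -2.97 in enok_KD and -1.60 and -1.53 in GFP_KD. Those of cluster 56 were -1.15 and -1.60 in enok_KD and -1.39 and -1.42 in GFP_KD. H3 itself was uneven: normalised H3 counts per kb in GFP_KD ran from 2.11 in cluster 58 to 108 in cluster 22, with a median of 7.62 over the arm clusters and 4.68 over all clusters tested. Across the 35 arm clusters this H3 density was weakly related to the ratio, with a rho of 0.25.

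Distance to the centromeric end of the arm separated one set of clusters. Leaving aside cluster 110, which its GFP_KD H3K23ac counts helped to select, 6 arm clusters lay more than 2 Mb from that end. All 6 had a ratio above 0 in GFP_KD, with log2 ratios between 1.11 and 2.12 and a median of 1.86. Each was called higher, where 38.7% of all clusters and 45.7% of the arm clusters were. These were clusters 27 on 2L, 128 and 97 on 2R, 48 on 3L, and 19 and 22 on X. Their ratios stayed above 0 in GFP_KD with total-count scaling, where the lowest was 0.58, and with transposon-table factors, where it was 0.32. This did not hold in enok_KD. There, with cluster 110 counted, 5 of the 7 far clusters were above 0 and 2 below with either scaling. The lowest was -0.26 with total-count scaling and -0.29 with transposon-table factors. Of the 28 clusters within 2 Mb, 10 had a ratio above 0 and 18 a ratio below 0 in GFP_KD, with a median of -0.44 and a range of -1.74 to 2.09. This split was 8 to 20 with total-count scaling and 6 to 22 with transposon-table factors. Among these 28 clusters, 9 were called higher and 13 lower in GFP_KD. By replicate, the median over the 6 far clusters was 1.62 and 1.68 in enok_KD and 1.82 and 1.87 in GFP_KD, and the median over the 28 nearer clusters was -0.44 and -0.17 in enok_KD and -0.38 and -0.39 in GFP_KD. Cluster 110, at 9.76 Mb, was at -1.19 and 1.51 in enok_KD and at 2.40 and 2.73 in GFP_KD. The groups overlapped, since clusters 107, 42, 45, 79, 141 and 111 lay within 2 Mb and had log2 ratios of 1.49 to 2.09 in GFP_KD.

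Over the 35 clusters the ratio in GFP_KD and the distance had a rho of 0.22, or 0.15 without cluster 110, but within 2 Mb the rho had the other sign, at -0.37 over 28 clusters. Arm by arm, the rho in GFP_KD was 0.52 over the 8 clusters on 2L, 0.09 over the 10 on 2R, 0.10 over the 10 on 3L and 0.03 over the 6 on X. In enok_KD it was 0.62 on 2L, 0.25 on 2R, -0.006 on 3L and -0.09 on X. The median ratio in GFP_KD was -0.40 over the 22 clusters within 1 Mb and -0.87 over the 6 clusters between 1 and 2 Mb. Clusters right at the centromeric end included some of the highest ratios. Cluster 42, at 3R:6252-22624 and only 0.006 Mb from the arm's end, had 273 and 340 H3K23ac counts against 353 and 323 H3 counts in enok_KD, and 607 and 495 against 427 and 552 in GFP_KD. The study states that an expressed gene lies within cluster 42, and whether that gene bears on the ratio was not tested. Cluster 45, the nearest on X at 0.039 Mb, had a log2 ratio of 1.81 in GFP_KD. The nearest clusters on the other arms were lower: cluster 51 on 2L, at 0.019 Mb, was at -0.57, cluster 28 on 2R, at 0.102 Mb, was at -0.16, and cluster 58 on 3L, at 0.041 Mb, was at -0.18, and the last 2 were not called. The farthest clusters on 2L, 2R, 3L and X were clusters 27, 97, 48 and 22, at 1.17, 1.89, 1.82 and 1.11. Cluster 97 lay at 2R:21139959-21146679, 21.1 Mb from the centromeric end. Cluster 22 ended 11062 kb short of cluster 19, whose coordinates are given below, which puts cluster 22 near the far tip of X. Distance to the telomeric end was not measured, so a cluster beyond 2 Mb need not lie in the middle of an arm. The arm clusters share libraries and depth, so the correlations are descriptions across clusters and not tests.

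**Figure D2:**
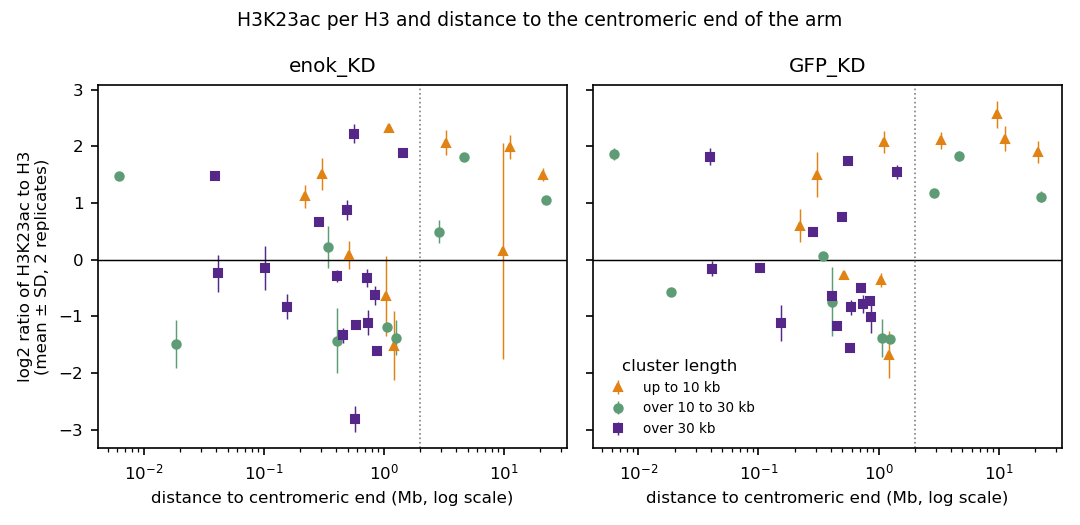
Log2 ratio of H3K23ac to H3 (y axis, mean ± SD of 2 replicates) against distance to the centromeric end of the arm (x axis, Mb, log scale) for the 35 arm clusters in enok_KD (left) and GFP_KD (right), with shape and colour by cluster length and a dotted line at 2 Mb. In GFP_KD the clusters right of the line, cluster 110 among them, lie above 0, whereas the 28 on its left lie on both sides.

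Length moved together with distance. Over the 35 clusters the ratio in GFP_KD was lower in longer clusters, at a rho of -0.48, or -0.43 without cluster 110. Without that cluster, the 9 clusters of up to 10 kb had a median of 1.49, the 9 of over 10 to 30 kb a median of 0.05 and the 16 of over 30 kb a median of -0.58. Longer clusters lay closer to the centromeric end, with a rho of -0.41 between length and distance, and all 16 clusters over 30 kb were within 2 Mb. Within 2 Mb the rho between ratio and length was -0.23 over 28 clusters. There the 6 clusters of up to 10 kb had a median of 0.14, while the 3 equally short clusters beyond 2 Mb other than cluster 110 had a median of 2.11. The longest clusters, 28 at 109.522 kb and 9, had ratios of -0.16 and -1.56, and cluster 111, the shortest but for cluster 110, had a ratio of 1.49 at 4.346 kb. Cluster 110 itself was 1.352 kb long, with a ratio of 2.56 that helped to select it. Over the 28 clusters with a mean of at least 100 counts the rho with length was -0.64. That minimum counts H3K23ac reads, so a short cluster passes it more readily when its ratio is high. The 7 clusters it left out had a median length of 9.80 kb and a median ratio of -0.30, with 5 below 0 and 2 above. The larger rho is therefore no separate support for a relation to length. Length and distance cannot be told apart for clusters over 30 kb, none of which lay beyond 2 Mb.

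By arm, the 6 clusters on X had a median ratio of 1.65 in GFP_KD, or 1.49 without cluster 110, and cluster 9 was the one X cluster below 0, while the 10 on 2R had a median of -0.54, the 10 on 3L a median of -0.06 and the 8 on 2L a median of 0.33. Of the 6 clusters on X, 3 lay beyond 2 Mb, against 2 of the 10 on 2R and 1 of the 10 on 3L.

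The ratio could change abruptly between neighbours. Clusters 23 and 79 on 2L, at 2L:22369381-22420241 and 2L:22420341-22452436, were separated by 99 bp. Cluster 23 had 37 and 45 H3K23ac counts against 293 and 271 H3 counts in enok_KD, and 79 and 62 against 361 and 460 in GFP_KD. Cluster 79 had 615 and 934 H3K23ac counts against 522 and 478 H3 counts in enok_KD, and 806 and 670 against 675 and 747 in GFP_KD. Their log2 ratios differed, as cluster 79 minus cluster 23, by 3.20 and 3.54 in enok_KD and by 2.44 and 2.72 in GFP_KD. That step came from H3K23ac: its normalised density was 60.6 per kb in cluster 79 and 2.08 in cluster 23 in enok_KD, and 40.4 and 2.45 in GFP_KD. The normalised H3 density was also higher in cluster 79, at 13.0 against 4.63 in enok_KD and 12.1 against 4.39 in GFP_KD. This difference in H3 made the step in the ratio smaller. On the other side of cluster 79, cluster 31 began 37.1 kb away and the difference, as cluster 31 minus cluster 79, was -3.35 and -3.77 in enok_KD and -2.85 and -2.97 in GFP_KD. Cluster 79 therefore stood alone between low neighbours in all 4 library pairs.

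Most other close neighbours were more alike. There were 12 pairs of adjacent arm clusters with a gap of up to 100 kb, including those of cluster 79 with clusters 23 and 31. Their absolute difference in the GFP_KD log2 ratio had a median of 0.58 and ranged from 0.07 to 2.91. It had a median of 1.34 over all 595 pairs of arm clusters, which include the clusters beyond 2 Mb, whereas the 12 pairs do not. A run of 7 clusters on 3L (40, 25, 86, 75, 91, 65 and 58, in the direction of the centromere) had gaps of 24.9 to 78.8 kb and ratios in GFP_KD of 0.76, -0.66, 0.05, 0.49, 0.58, -1.11 and -0.18. The signs of clusters 40, 86, 75 and 91 turned with transposon-table factors, and those of 86 and 75 also with total-count scaling. The largest step in this run was between clusters 91 and 65, across 30.7 kb, where the difference, as cluster 65 minus cluster 91, was -1.64 and -2.25 in the enok_KD replicates and -1.28 and -2.15 in the GFP_KD replicates.

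**Figure D3:**
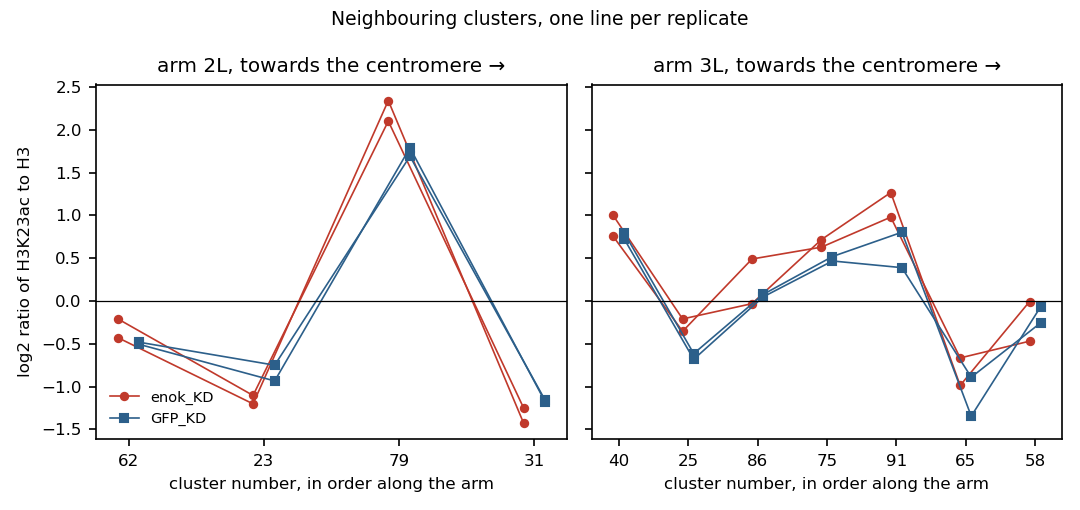
Log2 ratio of H3K23ac to H3 (y axis) in neighbouring arm clusters in their order along 2L (left) and 3L (right), with the centromere to the right; red circles are the 2 enok_KD replicates and blue squares the 2 GFP_KD replicates, and a line joins the clusters of a replicate. Cluster 79 rises above clusters 23 and 31 in all 4 lines, with a difference from cluster 23 of 2.44 to 3.54.

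Against this spread between clusters, the change with enok knockdown was small for most arm clusters. The log2 change of H3K23ac per H3 in enok_KD over GFP_KD had a median of -0.03 over the 35 arm clusters and of -0.03 over all 93 clusters. It was called for 4 arm clusters, 1 higher and 3 lower, or 11.4% of them, against 12.9% of all clusters, 4.3% higher and 8.6% lower (edgeR quasi-likelihood test, Benjamini-Hochberg adjusted p under 0.05). With total-count scaling, a shift of -0.21 in the median over all clusters, the calls were 0 higher and 6 lower, with 0 higher and 10 lower at an unadjusted p under 0.05. The count was 1 without GFP_KD H3 replicate 2, and 2 without enok_KD H3 replicate 1, enok_KD H3K23ac replicate 2 or GFP_KD H3K23ac replicate 1. The replicates of the knockdowns did not overlap in 19 of 35 arm clusters, where 51.6% of all clusters did not overlap. With 2 libraries a group, an exact two-sided permutation test of a single cluster cannot go below p = 0.333, so these p values rest on a spread shared across clusters. The study describes its ChIP-seq replicates as independent, each from ovaries pooled over many females.

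Cluster 9 had the largest called change. Its H3 counts, given above, were higher in both enok_KD libraries than in either GFP_KD library although the enok_KD libraries were shallower, and its normalised H3 counts were 7061 and 8616 in enok_KD, against 4046 and 3727 in GFP_KD. Its normalised H3K23ac counts were 1129 and 1101 in enok_KD, against 1337 and 1292 in GFP_KD. The log2 change of the ratio was -1.25 ± 0.17 (SE, n = 2 libraries a group, edgeR adjusted p = 5.91e-11), of which H3 rose by 1.01 ± 0.11 (edgeR adjusted p = 2.42e-16), while the H3K23ac change was -0.24 ± 0.13 (edgeR adjusted p = 0.202). The ratio call held in every alternative that kept cluster 9, with changes between -1.46 and -1.08.

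Cluster 27, 13.844 kb at 2L:20104660-20118503, had the opposite make-up. It had 78 and 107 H3K23ac counts in enok_KD, against 265 and 212 in GFP_KD, which after scaling were 236 and 235 against 419 and 419. Its H3 counts were 224 and 178 in enok_KD, against 324 and 357 in GFP_KD, or 185 and 150 against 190 and 183 after scaling. H3K23ac therefore fell without overlap, by 0.84 on the log2 scale (SE 0.16, edgeR adjusted p = 6.44e-06), the H3 change was -0.15 ± 0.13, and the ratio changed by -0.69 ± 0.21 (edgeR adjusted p = 0.0117). The H3K23ac call held in all alternatives tried, but the ratio call was lost in the DESeq2 test (adjusted p = 0.112), over clusters with a mean of at least 100, and without enok_KD H3 replicate 1 (adjusted p = 0.130 in edgeR), enok_KD H3K23ac replicate 2 or GFP_KD H3 replicate 2. Cluster 27 was the only one of the 4 with a called ratio change to lie beyond 2 Mb from the centromeric end.

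Cluster 51, 21.732 kb at 2L:22971156-22992887, had changes of opposite sign in the antibodies, and only that of H3 was called. It had 20 and 37 H3K23ac counts in enok_KD, against 65 and 54 in GFP_KD, and 257 and 220 H3 counts in enok_KD, against 270 and 300 in GFP_KD. After scaling the H3K23ac counts were 61.6 and 81.8 against 103 and 107, and the H3 counts 213 and 185 against 158 and 154. H3 rose by 0.35 ± 0.13 (edgeR adjusted p = 0.0371), while the H3K23ac change was -0.54 ± 0.25 (edgeR adjusted p = 0.119). The ratio changed by -0.89 ± 0.28 (edgeR adjusted p = 0.0156). This call was lost in the DESeq2 test (adjusted p = 0.115), over clusters with a mean of at least 100, and without enok_KD H3 replicate 1, enok_KD H3K23ac replicate 1, GFP_KD H3 replicate 2 or either GFP_KD H3K23ac library, where edgeR adjusted p values ran from 0.051 to 0.083.

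Cluster 79 was the one arm cluster called higher. Its H3K23ac counts after scaling were 1851 and 2039 in enok_KD, against 1274 and 1321 in GFP_KD, and its H3 counts 431 and 403 in enok_KD, against 395 and 382 in GFP_KD. H3K23ac rose by 0.59 ± 0.12 (edgeR adjusted p = 3.5e-05) and the ratio by 0.48 ± 0.17 (edgeR adjusted p = 0.0393), so the highest point of its neighbourhood was higher still in enok_KD. The ratio call was lost with total-count scaling, at 0.28, and without enok_KD H3 replicate 2, enok_KD H3K23ac replicate 2 or any of the 4 GFP_KD libraries. Cluster 23 next to it had a change of -0.32 ± 0.25 (edgeR adjusted p = 0.514).

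The uncalled changes followed no single direction. Cluster 55 on 3L had a change of -0.65 (edgeR adjusted p = 0.0881), cluster 42 of -0.39 (edgeR adjusted p = 0.152) and cluster 91 on 3L of 0.51 (edgeR adjusted p = 0.356). Cluster 110, the smallest, had 1 and 11 H3K23ac counts in enok_KD, against 18 and 21 in GFP_KD, and 12 and 10 H3 counts in enok_KD, against 9 and 12 in GFP_KD. Its change of -1.84 was the lowest of all, with an SE of 0.84, an unadjusted p of 0.0293 and an adjusted p of 0.152 in edgeR. It was -2.37 in limma-voom with group weights (adjusted p = 0.00764), and adjusted p values over the other alternatives ran from 0.0535 to 0.601. The GFP_KD H3K23ac counts that helped to select cluster 110 are also the baseline of this change. A fall was thus favoured by the selection, and these p values cannot test it. Cluster 112 had 3 and 7 H3K23ac counts in enok_KD, against 14 and 6 in GFP_KD, and a change of -0.77 ± 0.68 (edgeR adjusted p = 0.589).

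The change of the ratio had a rho of 0.04 with length and of -0.12 with distance over the 35 clusters, and of -0.04 and -0.05 without cluster 110. Within 2 Mb both signs turned, at -0.18 for length and 0.14 for distance over 28 clusters. Leaving aside cluster 110, whose GFP_KD H3K23ac counts helped to select it, the 6 clusters beyond 2 Mb and the 5 on X had a change below 0. On 3L, 7 of the 10 had a change above 0. Several of these changes were close to 0. With DESeq2 size factors 4 of the 7 far clusters and 3 of the 6 on X, with cluster 110 counted, had a change above 0 instead. With total-count scaling 3 of the 10 on 3L had a change above 0. The far clusters other than cluster 110 had a median change of -0.05 and the nearer ones of 0.06.

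H3 and H3K23ac taken singly showed further arm clusters that moved. H3 was called higher in enok_KD at 6 arm clusters and lower at 0, or 17.1% of the 35, against 15.1% of all clusters, 11.8% higher and 3.23% lower (edgeR, adjusted p under 0.05). At an unadjusted p under 0.05 edgeR gave 7 higher and 2 lower, where 23.7% of all clusters passed. The DESeq2 test called 2 higher and 0 lower at an adjusted p under 0.05, and limma-voom called 6 higher and 0 lower. The split was 3 higher and 5 lower with total-count scaling, a shift of -0.18 in the median over all clusters. The count was 3 without enok_KD H3 replicate 1 or either GFP_KD H3 library. After cluster 9, the largest changes were in cluster 19, by 0.72 ± 0.17, and cluster 39 on 2R, by 0.54 ± 0.12, and clusters 128, 51 and 48, chosen after their values were seen, had 0.51, 0.35 and 0.35. The calls of these last 3 were lost with total-count scaling, over clusters with a mean of at least 100 and in the DESeq2 test. Cluster 39 had normalised H3 counts of 322 and 291 in enok_KD, against 214 and 208 in GFP_KD, and its call held in every alternative. The replicates of H3 did not overlap in 23 of the 35 clusters, where 54.8% of all clusters did not.

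H3K23ac was called higher at 5 arm clusters and lower at 1, again 17.1% of the 35, against 11.8% of all clusters, 8.6% higher and 3.23% lower (edgeR, adjusted p under 0.05). With total-count scaling, a shift of -0.39 in the median over all clusters, the split was 0 higher and 12 lower, with 0 higher and 13 lower at an unadjusted p under 0.05, so the direction of these calls is relative to the scaling. The 5 were clusters 19, 79, 141, 128 and 107, at 0.68, 0.59, 0.56, 0.46 and 0.42, and the 1 was cluster 27. All 5 had a ratio above 1.5 in GFP_KD, but such a ratio was not particular to them. Clusters 48, 97, 45, 42 and 110 also had a ratio above 1.5 in GFP_KD, without a called H3K23ac change. Their log2 changes of H3K23ac were 0.32, -0.16, -0.21, -0.31 and -1.17. The fall of cluster 110 was favoured by its selection, as given above. Of the 5 called higher, 3 (79, 141 and 107) lay on 2L within 1.436 Mb of the centromeric end. Cluster 141, 30.987 kb at 2L:21544534-21575520, had normalised H3K23ac counts of 543 and 575 in enok_KD, against 383 and 377 in GFP_KD, without overlap, and its ratio changed by 0.34 ± 0.20 (edgeR adjusted p = 0.311). The replicates of H3K23ac did not overlap in 18 of the 35 clusters, where 57% of all clusters did not.

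Clusters 19 and 128 rose in both antibodies, and their ratio changes were near 0. Cluster 19, 6.178 kb at X:11089529-11095706, had 74 and 194 H3K23ac counts in enok_KD, against 134 and 104 in GFP_KD, and 75 and 114 H3 counts in enok_KD, against 74 and 102 in GFP_KD. Its second enok_KD library was the highest for both antibodies. Its ratio change was -0.04 ± 0.23. Without enok_KD H3K23ac replicate 2 the H3K23ac change was 0.09 (edgeR adjusted p = 0.866), and without enok_KD H3 replicate 2 the H3 change was 0.37 (edgeR adjusted p = 0.348), so both calls rested on that pair of libraries. Cluster 128 had normalised H3K23ac counts of 636 and 492 in enok_KD, against 397 and 417 in GFP_KD, and H3 counts of 137 and 131 in enok_KD, against 99.0 and 89.7 in GFP_KD, with a ratio change of -0.05 ± 0.20. Its H3K23ac call was lost without enok_KD H3K23ac replicate 1, at 0.27, or GFP_KD H3K23ac replicate 1, and its H3 call without enok_KD H3 replicate 1 or GFP_KD H3 replicate 2.

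**Figure D4:**
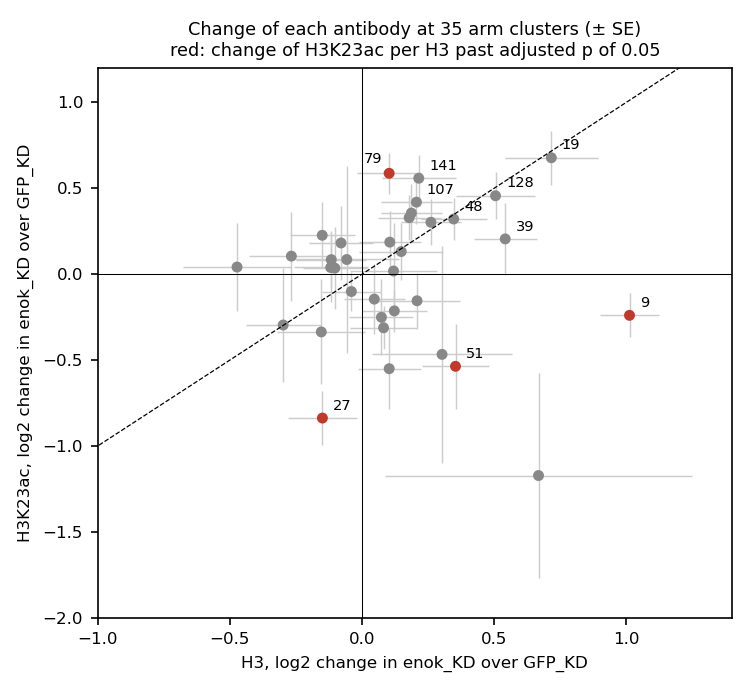
Log2 change of H3K23ac (y axis) against log2 change of H3 (x axis) in enok_KD over GFP_KD for the 35 arm clusters, with SE bars from edgeR (n = 2 libraries a group); the dashed line marks equal change, red points the 4 clusters with a called change of the ratio, and numbers the clusters called in any of the 3 comparisons. Cluster 9 lies far to the right (H3 change 1.01), cluster 27 low (H3K23ac change -0.84), and clusters 19 and 128 on the line.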

How the data were processed

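Ovarian ChIP-seq reads were trimmed and aligned with Bowtie2 2.2.1 to dm3 per the submitters' processing notes, which also name Trimmomatic and bedtools. Per the study's methods, mismatches were not allowed and reads mapping to several places were dropped, so counts cover the uniquely mappable part of each cluster and densities per kb are not corrected for it. How duplicates were treated is not given in the sources used here. The deposited counts are the authors' whole-number read counts per piRNA cluster or transposon family in each library, not normalised. The tables also hold the authors' DESeq2 comparisons (base mean, log2 fold change, SE, statistic and p values), which were not used.

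Counts of the 93 clusters with a mean of at least 10 were fitted in edgeR 4.0.16 (R 4.3.3) with TMM factors, 4 groups of 2 libraries in 1 quasi-likelihood model, and Benjamini-Hochberg adjustment over all 93. The change of H3K23ac per H3 was the interaction of knockdown and antibody. Ratios per replicate used an offset of 0.5 counts and set libraries of equal number side by side, a pairing the study does not state. Distance to the centromeric end was taken from the cluster start on 2R and 3R, and from the cluster end and the dm3 arm length on 2L, 3L and X. Densities are normalised counts per kb. The model was also run on simulated data drawn with the same spread in every group. The real groups differed in spread, so no support is taken from that run. Alternatives were DESeq2 1.42.0 (test and size factors), total-count and transposon-table scaling, limma 3.58.1 voom, other count minimums, a replicate block and leaving out each library. Others, without clusters 9 and 92, within 2 Mb and without cluster 110, were chosen after seeing the data. Clusters named were those with a called ratio change, the 5 highest and 5 lowest ratios in GFP_KD at a mean of at least 100, the 3 largest called changes of each antibody in each direction, the nearest and farthest on each arm, the longest, the shortest, and those beside the minimum; neighbours and others were chosen after their values were seen. Members and lists were chosen with earlier results of these data known. No sequence is shown because no dm3 genome was used.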

Additional observations from a re-analysis of the deposited data

How the results depend on the processing

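The 4 called changes of H3K23ac per H3 became 2 over clusters with a mean of at least 100 and 2 in the DESeq2 test, and ranged from 1 to 3 when a library was left out. The 6 called changes of H3 became 3 over clusters with a mean of at least 100 and 2 in the DESeq2 test, with a range of 3 to 8 when a library was left out. The 6 called changes of H3K23ac became 12 with total-count scaling and 10 over clusters with a mean of at least 100, with a range of 5 to 8 when a library was left out. The 29 called ratios in GFP_KD stayed between 28 and 33 under all alternatives but the minimum of 100, which left 26. Ratio against length, with a rho of -0.48, was -0.64 at a mean of at least 100, -0.49 as Pearson's r on log10 length, -0.23 within 2 Mb, -0.43 without cluster 110, and -0.491 to -0.463 when a library was left out. The minimum of 100 counts H3K23ac reads, so it favours short clusters of high ratio and the -0.64 is not separate support. Ratio against distance was 0.26 as Pearson's r, 0.15 without cluster 110, and turned to -0.37 within 2 Mb. The change against length turned to -0.18 within 2 Mb and to -0.044 without cluster 110, and ran from -0.047 to 0.063 when a library was left out, and the change against distance turned to 0.14 within 2 Mb and ran from -0.148 to 0.0064. The cause of these shifts was not tested. Replicate numbers were not taken to pair the libraries, since no source says that they do and 2 pairs cannot show it. The correlation between groups of the difference between replicates 1 and 2 over 93 clusters was 0.38 between enok_KD and GFP_KD for H3K23ac and -0.12 for H3, and -0.06 and 0.04 between H3 and H3K23ac within enok_KD and within GFP_KD. With a replicate block the counts were 4 for the ratio change, 6 for H3, 7 for H3K23ac and 29 for the GFP_KD ratio. Clusters 110 and 112 were the shallowest, with 1 to 21 and 3 to 14 H3K23ac counts a library.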
